A study of Mus musculus with 2 samples.

Results

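Nucleotide synthesis and one-carbon metabolism were examined here through 36 genes, chosen by name and matched to the deposited tables by Ensembl gene identifier. All 36 were found among 43346 gene entries. They were grouped by role into 14 genes of purine synthesis and salvage, 5 of pyrimidine synthesis, 8 of deoxynucleotide supply, 6 of folate one-carbon metabolism and 3 of serine synthesis. RNA came from G1E, an immortalised mouse line labelled a Gata1- erythroid progenitor, male, postnatal and of age 0 days, with no treatment given. G1E cells lack functional GATA1, the factor that drives red cell maturation, and are held before terminal differentiation. The 2 paired-end poly(A) libraries form 1 group. The labels number them as biological replicates 1 and 2 but cite 1 shared cell sample, so the spread between them may be technical. One line without a control group allows no comparison of conditions.

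Purines and pyrimidines are built from amino acids, carbon dioxide, a ribose phosphate donor and, for purines and for thymidylate, one-carbon units carried by folate. Serine supplies most of those units in dividing cells, through serine hydroxymethyltransferases in the cytosol and in mitochondria, and it is either imported or made from a glycolytic intermediate. Ribonucleotide reductase then turns ribonucleotides into the deoxynucleotides used for DNA. Proliferating erythroid progenitors need both products, and shortage of folate in this lineage is a textbook cause of megaloblastic anaemia.

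The first replicate held 61982634 expected counts and the second 80658648. The label was checked against marker genes: 6 of 6 erythroid progenitor markers (Gata2, Klf1, Tal1, Zfpm1, Kit and Epor) were present at 83.3 to 1232 TPM. TPM is the count divided by effective transcript length and scaled to a fixed total per library, so it can be compared between genes. None of 13 markers of T cells, B cells, pluripotent cells, fibroblasts, endothelium and neutrophils reached 1 TPM in both libraries, and the highest value among them was 1.19 TPM. Markers of mast cells and megakaryocytes were not in the list, nor was Gata1, so the check does not cover these lineages or the loss of Gata1. In these bulk libraries, a lower level per cell and fewer cells holding the RNA cannot be told apart.

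Nearly the whole set was expressed. At a limit of 1 TPM in both libraries, 35 of the 36 genes (97.2%) were detected, beside 21.1% of all gene entries and 40% of protein-coding genes. At 10 TPM or more in both there were 25, against a background of 12.5% and 24.3%, and at 100 TPM or more 8, against 2.87% and 5.56%. The median of the 36 levels was 24.5 TPM in replicate 1 and 31.3 in replicate 2, while detected protein-coding genes had medians of 17.0 and 19.0. Together the 36 genes held 0.273% and 0.328% of all TPM. The exception was Phgdh, the first enzyme of serine synthesis, at 2 and 0 counts.

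**Figure D1:**
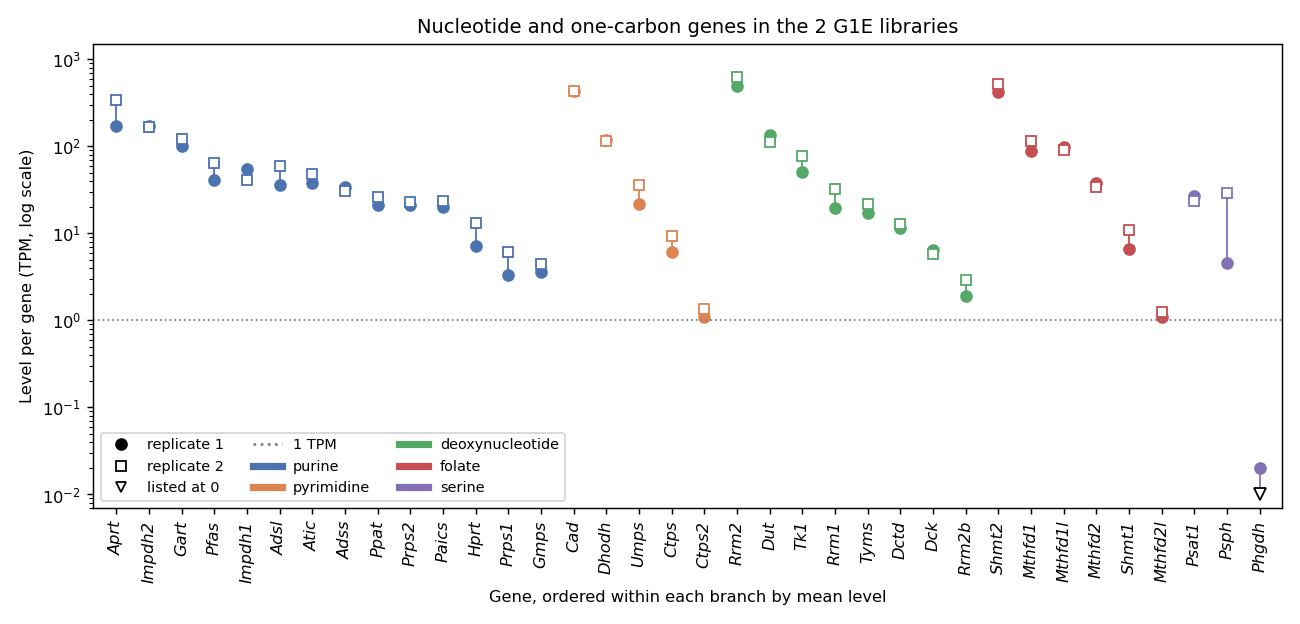
Level of each of the 36 genes in TPM on a log axis, by branch and ordered within a branch by mean level, with replicate 1 as filled circles and replicate 2 as open squares joined by a line. The dotted line marks 1 TPM; 35 genes lie above it in both libraries, Phgdh lies below at 0.02 and 0 TPM (triangle), and Psph has the widest gap, 4.51 against 29.0 TPM.

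By gene TPM, Rrm2, Shmt2 and Cad led the set, one each from deoxynucleotide supply, folate metabolism and pyrimidine synthesis. Rrm2 stood at 496 and 627 TPM, Shmt2 at 421 and 517, and Cad at 431 and 431, in replicates 1 and 2. Rrm2 was highest in both libraries, whereas Shmt2 and Cad changed places, so the order of that pair is within the spread. Cad lost this place over protein-coding transcripts alone, where its mean was 73.9 TPM and Aprt, Dut, Impdh2, Gart, Mthfd1 and Mthfd1l were above it. Branch medians were 62.8 ± 0.799 TPM (SD, n = 2 libraries) for folate genes, 35.4 ± 0.661 for purine genes, 28.9 ± 10.1 for pyrimidine genes, 22.5 ± 5.97 for deoxynucleotide genes and 14.2 ± 13.7 for serine genes. Folate genes were highest in both libraries. Purine and pyrimidine genes were level in replicate 2, at 35.9 and 36 TPM, so by gene TPM these 2 branches did not separate beyond the spread. Over protein-coding transcripts alone they did, with medians of 22.6 and 28.6 TPM for purine genes and 6.13 and 9.30 for pyrimidine genes. The pyrimidine values leave out forms that the annotation used for transcript types does not list. Those forms held 9.07 and 11.7 TPM in Dhodh and 368 and 346 TPM in Cad.

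Among the deoxynucleotide genes, RNA for a small subunit of ribonucleotide reductase was highest. Rrm2 (ENSMUSG00000020649.7, mm10 chr12:24708241-24714146, plus strand), the radical-bearing small subunit that accumulates in S phase, had a mean of 562 ± 93.0 TPM. Rrm1 (chr7:102441695-102469771, plus strand), the large catalytic subunit with which it assembles, had 19.6 and 32.0 TPM. The RNA of the small subunit was thus 25.3-fold that of the large subunit in replicate 1 and 19.6-fold in replicate 2, a gap larger than the difference between libraries. Both genes are carried by 1 main transcript: Rrm1 has 1 annotated, and 99.5% and 99.6% of the TPM of Rrm2 lay in its full-length form of 2193 bases. Rrm2b, the p53-inducible small subunit that serves resting and damaged cells, had 1.89 and 2.92 TPM from 168 and 310 counts. To show how unlike the DNA upstream of these partner subunits is, the stretches before their RefSeq start sites (GRCm38.p6) that lie in no annotated exon are given 5′ to 3′, with the letters CCAAT in capitals. The Rrm1 stretch is chr7:102441445-102441694 and has 46% G and C, and the Rrm2 stretch is chr12:24708004-24708240 with 72.6%.
Rrm1: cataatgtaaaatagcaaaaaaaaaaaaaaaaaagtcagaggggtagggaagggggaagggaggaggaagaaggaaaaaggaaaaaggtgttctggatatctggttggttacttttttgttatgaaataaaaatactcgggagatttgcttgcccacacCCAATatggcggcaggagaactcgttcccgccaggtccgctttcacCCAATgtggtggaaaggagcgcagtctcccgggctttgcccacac
Rrm2: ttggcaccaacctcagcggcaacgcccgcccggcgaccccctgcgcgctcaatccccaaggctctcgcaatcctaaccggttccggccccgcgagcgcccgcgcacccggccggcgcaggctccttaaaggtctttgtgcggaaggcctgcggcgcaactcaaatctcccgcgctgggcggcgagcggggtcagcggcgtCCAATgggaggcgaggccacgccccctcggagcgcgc
CCAAT begins 91 and 45 bases before the Rrm1 start and 50 bases before the Rrm2 start.

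The enzymes that make and clear thymidylate precursors were all present, over a wide range. Dut, the dUTP pyrophosphatase that keeps uracil out of DNA, had 135 and 112 TPM. Tk1, the cytosolic thymidine kinase of S phase, had 50.7 and 78.1 TPM, and Tyms, thymidylate synthase, had 17.0 and 21.5. Dctd, the dCMP deaminase, had 11.6 and 12.7 TPM, and Dck, the deoxycytidine kinase of salvage, had 6.45 and 5.82. By gene TPM, Dut, Tk1 and Tyms did not overlap each other in either library, so their order was the same in both. Over protein-coding transcripts alone these 3 kept their order, but Tyms fell to 1.70 and 2.83 TPM. It was then below Dctd at 5.35 and 4.84 TPM and Dck at 6.45 and 5.82.

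RNA of the folate genes was weighted towards the mitochondrial hydroxymethyltransferase. Shmt2 (ENSMUSG00000025403.4, chr10:127517123-127522444, minus strand), which splits serine in mitochondria, had a mean of 469 ± 67.3 TPM from 50851 and 78800 counts. Its cytosolic relative Shmt1 had 6.60 and 10.8 TPM, so that Shmt2 RNA was 63.8-fold and 47.6-fold higher. The next mitochondrial steps were lower: Mthfd2, the dehydrogenase and cyclohydrolase, had 37.5 and 34.1 TPM, and Mthfd1l, the formyl-tetrahydrofolate synthetase that ends the mitochondrial arm, had 97.7 and 90.4. Mthfd1l was 2.61-fold and 2.65-fold above Mthfd2, a log2 ratio of 1.40 ± 0.02 (SD, n = 2). Mthfd2l, a relative of Mthfd2, was at the edge of detection with 1.09 and 1.26 TPM. Mthfd1, the cytosolic trifunctional enzyme, had 89.3 and 116 TPM. Mthfd1l exceeded Mthfd1 in replicate 1 and fell short of it in replicate 2, so the mitochondrial and cytosolic synthetases could not be ordered.

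RNA of all 14 purine genes was detected, and by mean level Aprt was highest at 257 ± 124 TPM and Gmps lowest. Neither end held in replicate 1, where Impdh2 was above Aprt and Prps1 below Gmps. Of the enzymes that build inosine monophosphate, Gart, a trifunctional protein, was highest at 102 and 121 TPM. Pfas had 40.8 and 63.9 TPM, Atic, which closes the ring, 37.9 and 47.9, and Adsl, adenylosuccinate lyase, 35.97 and 59.0. Ppat, the committed step, had 21.5 and 26.5 TPM and Paics, a bifunctional enzyme further along, 19.96 and 23.6. The last pair are neighbours that start head to head on chromosome 5, Ppat at chr5:76913249-76951578 on the minus strand and Paics at chr5:76951307-76967509 on the plus strand, with 272 exon bases in common. The ratio of Ppat to Paics was 1.08 and 1.12 by gene TPM, but 0.215 and 0.390 over protein-coding transcripts and 0.870 and 0.948 by counts per length of the longest protein-coding transcript, so its direction turned with the measure. Whether the counting used strand is not given in the sources used here, so reads in the shared bases may belong to either gene.

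At the branch point after inosine monophosphate, IMP dehydrogenase was the highest step by gene TPM and GMP synthase the lowest. Impdh2, the IMP dehydrogenase of dividing cells, had 172 and 168 TPM, and Impdh1, its relative, 54.3 and 41.0. Gmps, the next enzyme, had 3.58 and 4.42 TPM, so that Impdh2 exceeded it 48.1-fold and 38.0-fold. By counts per length of the longest protein-coding transcript the same ratio was 18.5 and 14.3. Adss, which opens the adenine side, had 33.9 and 30.7 TPM, below Impdh2 and above Gmps in both libraries. The place of Impdh2 depends on the form counted: its full-length transcript had 6.99 and 8.20 TPM, below the 7.13 and 11.3 TPM of protein-coding Adss. That transcript was still above Gmps, whose 3.58 and 4.42 TPM lay in 1 annotated transcript of 8105 bases. The fold gaps given above do not apply to it. RNA of the salvage enzymes was unequal: Aprt, which recovers adenine, had 170 and 345 TPM, and Hprt, which recovers hypoxanthine and guanine, 7.08 and 13.2. Aprt was 24.0-fold and 26.1-fold above Hprt, although both genes had a higher TPM in replicate 2, by ratios of 2.03 and 1.86.

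The RNA order of the enzymes that make phosphoribosyl pyrophosphate, the ribose donor for both ring systems, depended on which transcripts were counted. Prps2 had 20.96 and 22.97 TPM and Prps1 3.34 and 6.09, so Prps1 was lower by a log2 ratio of -2.28 ± 0.52 (SD, n = 2). However, a processed transcript of 599 bases held 19.2 and 20.2 TPM of Prps2. Over protein-coding transcripts alone, Prps1 (2.89 and 3.30 TPM) was above Prps2 (1.81 and 2.75), and the log2 ratio was 0.47 ± 0.29. Prps1l3, a copy of Prps1 that matches it at 93.2% over 1478 of 1965 bases, held 3399 and 4606 counts against 302 and 486 for Prps1, and 38.6 and 41.4 TPM. The split of reads between Prps1 and this copy is therefore uncertain, and the combined output of the pair was not estimated.

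Pyrimidine synthesis fell into a high and a low group by gene TPM. Cad (ENSMUSG00000013629.12, chr5:31054780-31078479, plus strand), which carries the first enzymes of the pathway in 1 protein, had a mean of 431 ± 0.587 TPM. Dhodh, the mitochondrial dehydrogenase that follows, had 119 and 117 TPM. Umps, which finishes uridine monophosphate, had 21.8 and 36 TPM. The CTP synthases were low, with Ctps at 6.13 and 9.41 TPM and Ctps2 at 1.10 and 1.35. The TPM of Cad and Dhodh lay largely in short or intron-retaining forms. For Cad, a transcript of 582 bases that the annotation GENCODE M21 does not list held 78.4% and 66.8% of the TPM from 24.4% and 16.7% of the counts. The full-length form of 7137 bases had 63.3 and 84.5 TPM and most of the reads, 24711 and 41766 counts. For Dhodh, retained-intron transcripts held 90.9% and 88.2% of the TPM. Its protein-coding forms in M21 had 1.68 and 1.91 TPM, and a form of 2318 bases that M21 does not list had 9.07 and 11.7. Over protein-coding transcripts alone, Dhodh was thus below Umps at 19.7 and 33.0 TPM and Ctps at 6.13 and 9.30. The 2318-base form taken by itself was below Umps and above Ctps in both libraries. The place of Dhodh in the high group therefore rested on gene TPM.

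Serine synthesis showed almost no RNA of its first enzyme. Phgdh (ENSMUSG00000053398.7, chr3:98313170-98339990, minus strand), 3-phosphoglycerate dehydrogenase, had 2 counts in replicate 1 and 0 in replicate 2. The first is 0.0323 CPM (counts scaled to a common library total), with an exact 95% Poisson interval of 0.00391 to 0.117, and the second allows up to 0.0372 CPM at the limit of 3 counts. Both bounds describe counting error alone, because duplicate copies of a molecule could not be removed by identifiers. Copies of the gene held few reads too: M21 lists 18 copies that match Phgdh at 90.4% to 98.7%, and the 8 of them in the tables had 3 and 1 counts together. Psat1, the aminotransferase of the next step, had 1867 and 2609 counts and 27.2 and 23.9 TPM. Of that TPM, its protein-coding forms had 10.4 and 11.4, and a processed transcript of 438 bases had 14.1 and 7.40. Psph, the phosphatase of the last step, had 334 and 1516 counts and 4.51 and 29.0 TPM. So the later enzymes of the route were present in the same libraries where the first was at or under the limit for a count of 0. The DNA before the RefSeq starts of Phgdh (chr3:98339991-98340219, minus strand) and of the upstream start of Psat1 (chr19:15925060-15925309, minus strand) is given in the same way, as the pair in which neighbouring steps differ most.
Phgdh: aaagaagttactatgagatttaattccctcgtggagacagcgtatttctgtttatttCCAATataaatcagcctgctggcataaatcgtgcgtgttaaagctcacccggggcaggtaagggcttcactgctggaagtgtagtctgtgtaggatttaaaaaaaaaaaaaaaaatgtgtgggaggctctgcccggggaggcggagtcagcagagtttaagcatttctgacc
Psat1: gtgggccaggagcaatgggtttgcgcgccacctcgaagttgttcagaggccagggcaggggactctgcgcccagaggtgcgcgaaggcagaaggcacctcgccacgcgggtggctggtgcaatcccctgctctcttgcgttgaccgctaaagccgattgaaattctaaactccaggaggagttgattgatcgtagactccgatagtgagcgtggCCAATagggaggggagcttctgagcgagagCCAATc
CCAAT begins 193 bases before the start in Phgdh, with a further match 23 bases before it beyond the stretch shown, and 36 and 6 bases before the start in Psat1.

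Among 7 pairs of related enzymes, 5 kept 1 member ahead in both libraries under every measure tried that covers all forms, or all protein-coding forms, of a gene. The mean log2 ratio of gene TPM was 7.89 ± 0.20 (SD, n = 2) for Rrm2 over Rrm2b, 5.79 ± 0.30 for Shmt2 over Shmt1, 4.93 ± 0.24 for Mthfd2 over Mthfd2l, 2.64 ± 0.23 for Ctps over Ctps2 and 1.85 ± 0.26 for Impdh2 over Impdh1. Each exceeded its SD. The size of 3 of them depended on the transcripts counted: over protein-coding transcripts alone the ratio was 9.54 for Rrm2 over Rrm2b, 7.39 for Shmt2 over Shmt1 and 1.29 for Impdh2 over Impdh1. In the Rrm2 and Shmt2 pairs the lower gene held most of its TPM in forms not annotated as protein-coding. The other pairs were Prps1 and Prps2, whose order reversed, and Mthfd1l and Mthfd1, at -0.11 ± 0.34, which did not differ beyond the spread.

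**Figure D2:**
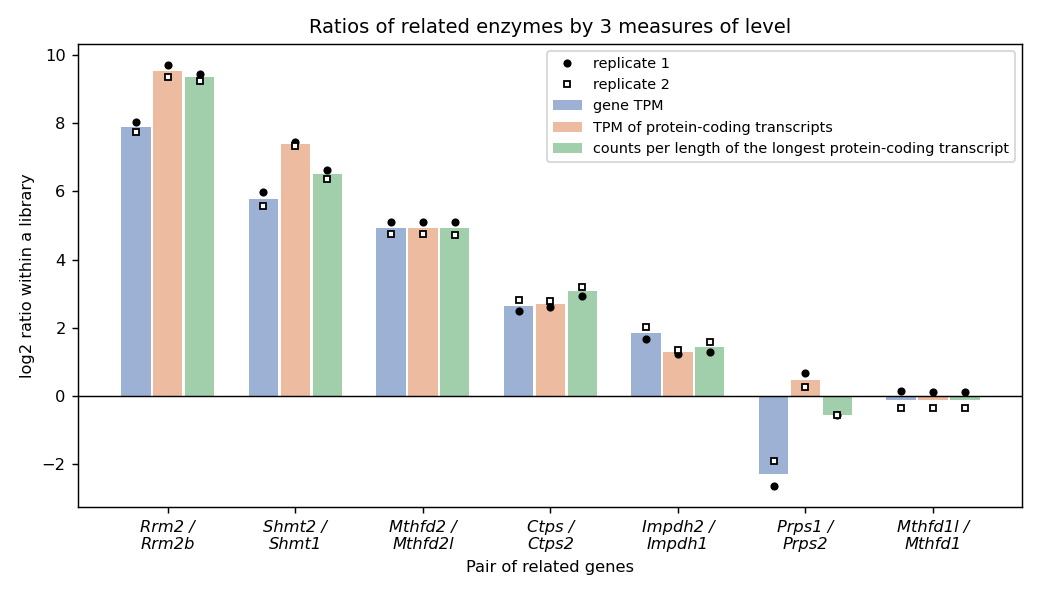
Log2 ratio of the first gene to the second in 7 pairs of related enzymes, by 3 measures of level; bars start at 0 and give the mean of the 2 libraries, with replicate 1 as filled circles and replicate 2 as open squares. The first 5 pairs are above 0 throughout, Prps1 over Prps2 runs from -2.28 by gene TPM to 0.47 by protein-coding transcripts, and Mthfd1l over Mthfd1 straddles 0.

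Genes differed in how much of their TPM lay in 1 form and how much in forms annotated as protein-coding. In 15 genes the leading transcript held 90% or more of the TPM in both libraries, and 8 of the 36 have 1 annotated transcript. Protein-coding transcripts made up 90% or more of the TPM in 18 genes, among them Shmt2, Rrm2, Mthfd1, Gart and Aprt. They made up under 50% in both libraries in 10 genes, with at least 1 in every branch; forms missing from M21 were not counted as protein-coding. In Tyms, transcripts with a retained intron held 74.9% and 82.4% of the TPM, and the protein-coding forms had 1.70 and 2.83 TPM. Ppat was similar, with 69.2% and 69.7% in a retained-intron transcript and 4.05 and 8.02 TPM in protein-coding forms, and so was Adss, with 78.9% and 63.1%. In Rrm2b, a transcript marked for nonsense-mediated decay held 68.8% and 67.4% of the TPM but 22.3% and 22.9% of the counts. In Impdh2, an 840-base protein-coding form held 112 and 85.7 TPM, whereas the full-length form held 6.99 and 8.20. A high protein-coding share need not mean 1 full-length form. All TPM of Impdh1 was protein-coding, but 84.9% and 81.1% lay in a form of 1237 bases. Paics was mostly protein-coding, with 42.1% and 44.6% in its leading form. The division of reads between forms of 1 gene is the authors' model estimate, and in 7 genes the form with the highest TPM was not the one with most counts.

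**Figure D3:**
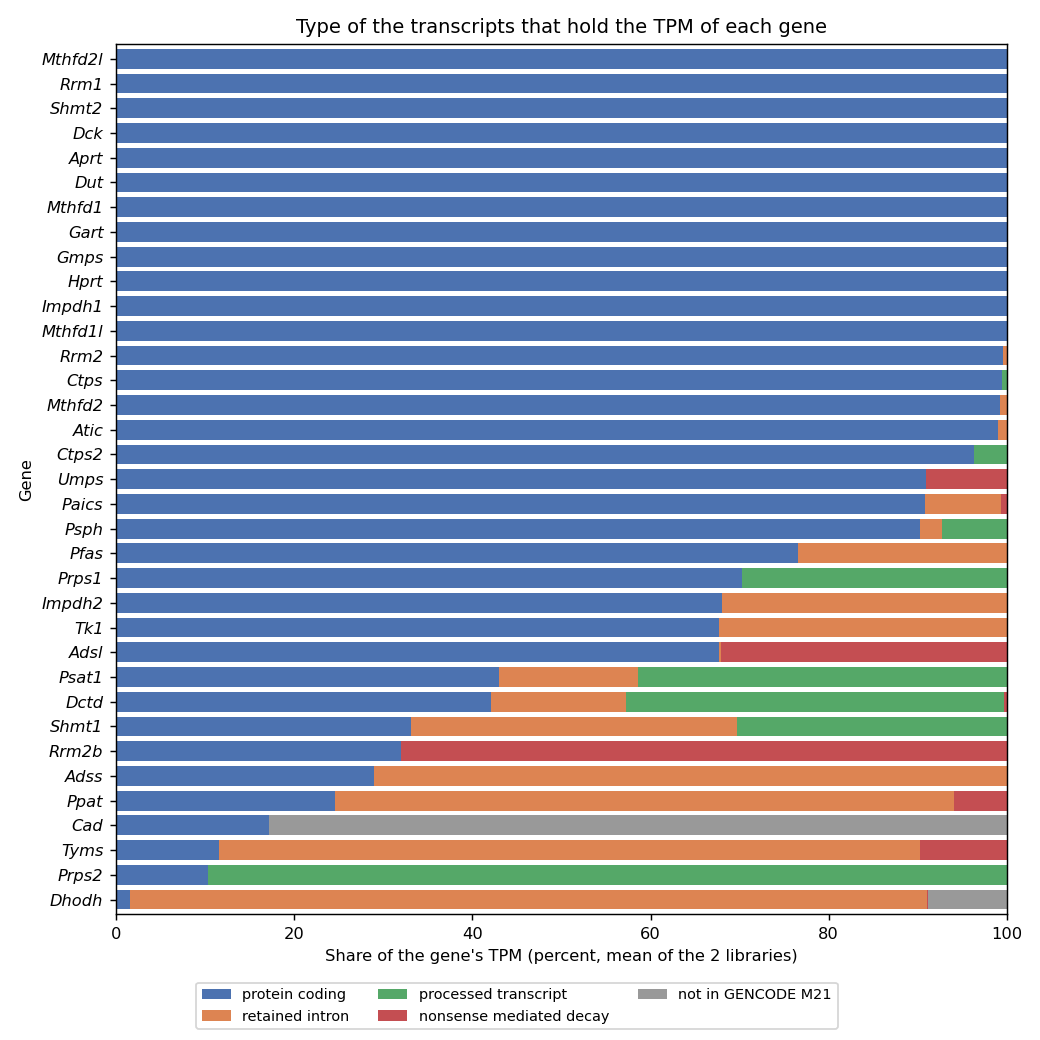
Share of each gene's TPM by annotated transcript type, in percent and as the mean of the 2 libraries, for the 35 detected genes ordered by the protein-coding share. The share is at or near 100% in the upper rows, and lowest in Dhodh at 1.53%, Prps2 at 10.3%, Tyms at 11.6% and Cad at 17.1%.

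Between the libraries, 1 of 35 tested genes (2.86%) passed an adjusted p of 0.05 and a 2-fold difference, where 5.62% of 11636 tested genes did so in either direction, 3.82% higher in replicate 2 and 1.8% higher in replicate 1. Expected counts were set against totals scaled by TMM (trimmed mean of M values) in an exact binomial test, conditional and two-sided, with Benjamini-Hochberg adjustment. It knows counting error only and compares these 2 libraries, not conditions. The gene was Psph, higher in replicate 2 by a scaled ratio of 3.21 (log2 1.68, adjusted p = 2.3e-101 by that exact test). Its TPM ratio was larger, 6.43. A 641-base protein-coding form had 0.33 and 16.3 TPM in replicates 1 and 2, and the full-length form of 1488 bases had 4.04 and 7.94. The exons of Psph overlap those of Cct6a, a chaperonin gene on the opposite strand, by 452 bases, and Cct6a had 9129 and 15520 counts; its part in the Psph value was not tested.

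The other tested genes stayed within 2-fold. Scaled ratios were above 1 in 24 of 35 genes (68.6%), beside 51.3% of all tested genes, and below 1 in 11. The median log2 ratio was 0.16, against 0.01 over all tested genes. Below Psph, the ratio was highest for Aprt at 1.81, Hprt at 1.66 and Tk1 at 1.65, and it was lowest for Impdh1, at a log2 ratio of -0.52. The purine genes held both of these ends, with Impdh1 lowest and Aprt highest among them. Within the serine branch, Psat1 had a scaled ratio of 0.989 beside the 3.21 of Psph.

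**Figure D4:**
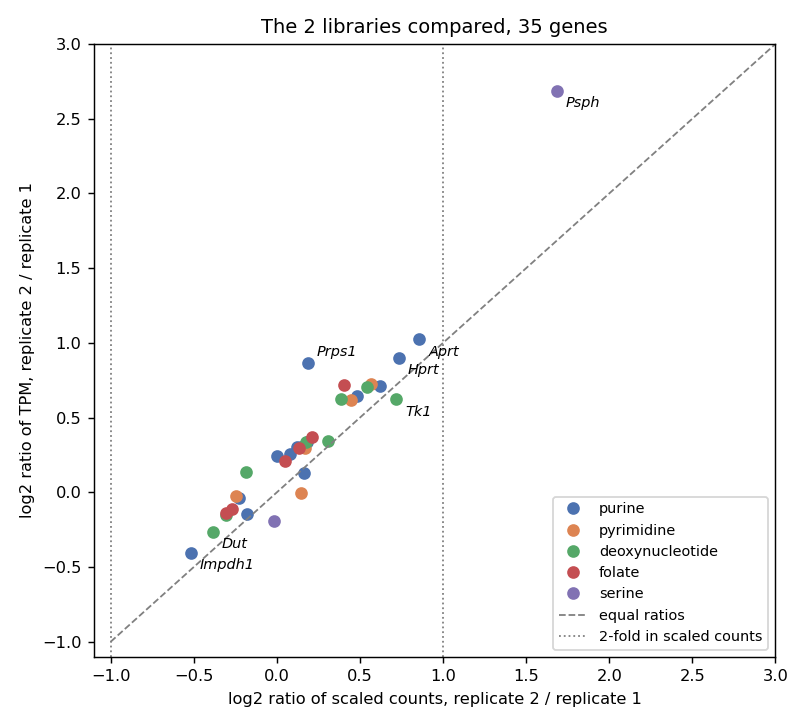
Log2 ratio of replicate 2 to replicate 1 for the 35 tested genes, with TMM-scaled counts on the x axis and TPM on the y axis, coloured by branch. The dashed line marks equal ratios and the dotted lines a 2-fold difference in scaled counts; Psph alone lies beyond them, at 1.68 on the x axis.

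Short motifs were searched near the start sites. RefSeq promoters of 300 bases (250 before and 50 after the start) were available in the table used here for 33 of the 36 genes. Rrm2b, Dhodh and Pfas were not in it. The letters CCAAT, on either strand, lay in a promoter of 15 of 33 genes (45.5%). The share was 41.1% of all genes with a listed promoter and 44.1% of detected protein-coding genes. Counted by promoter, 37.4% of all 32851 held these letters. All 3 serine genes, Phgdh included, had a match. The E-box letters CACGTG were in 4 (12.1%, against 8.09% and 12.8% of the same 2 sets of genes), which were Atic, Impdh2, Paics and Tyms. The E2F letters TTTCCCGC were in 2 (6.06%, against 1.24% and 2.84%), Ppat and Prps2. The letters TTTGGCGC were in none, beside 0.585% of all genes with a listed promoter. The amino acid response letters TGATGNAA were in Prps1 alone (3.03%, against 4.51% and 2.38%). A match is a description of letters and not a binding site. The searched motifs do not contain one another. GC content of the transcript with most counts ran from 39.0% to 58.5%, and its Spearman correlation with mean TPM across the 36 genes was 0.63; these are genes of the same libraries rather than independent replicates, and the part of base composition in the levels was not tested.

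Of 87 further genes of salvage, folate transport, nucleotide kinases, methionine metabolism and amino acid transport, 86 were found. Of these, 56 were detected in both libraries, beside 21.1% of all gene entries and 40% of protein-coding genes. The median over the 86 was 6.46 TPM in replicate 1 and 8.52 in replicate 2. The highest were Uck2, the uridine-cytidine kinase of pyrimidine salvage, at 575 and 561 TPM, Ampd2, an AMP deaminase, at 440 and 401, and Gmpr, the reductase that returns GMP to the inosine branch, at 256 and 238. Uck2 was above Rrm2 in replicate 1 and below it in replicate 2. Of 62 tested genes, 1 passed the same exact test and 2-fold limit between the libraries, where 5.62% of all 11636 tested genes did so. It was Slc29a3, a nucleoside transporter of inner membranes, at 0.42 and 1.64 TPM with a log2 scaled ratio of 1.18. Serine and neutral amino acid carriers were present, with Slc1a5 at 13.8 and 14.9 TPM and Slc1a4 at 5.22 and 6.17.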

How the data were processed

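Poly(A) RNA of G1E cells was sequenced in 2 libraries of 1 group. Each has a gene table and a transcript table on mm10 with gene annotation M4, made for each library separately, per the deposited descriptions. The sources used here do not give the aligner, the counter or any use of strand. The deposited expected counts are estimated read-pair counts that need not be whole. The authors' TPM divides them by effective length and scales each library to a fixed total, their FPKM scales by length and by fragments, and the percent per transcript is the share of the gene's TPM given by the authors.

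Identifiers were matched to GENCODE M21 (97.96% of entries), and transcript types and copies (at least 90% identity over 25% of the transcript) came from it. Counts were whole within 0.005 for 34 of the 36 genes. Depth limits the precision of low genes: a limit of 3 counts is 0.0484 and 0.0372 CPM. Levels are deposited TPM with mean and SD; medians, ratios and shares carry no test. Libraries were compared on expected counts rounded to whole numbers, over genes with 10 counts in at least 1 library, with TMM factors from edgeR 4.0.16 in R 4.3.3, an exact binomial test and Benjamini-Hochberg adjustment over all genes; calls needed adjusted p under 0.05 and 2-fold. The scripts were tested on simulated data. SciPy 1.17.1 and NumPy 2.4.6 ran the tests under Python 3.11.15, with pandas 2.3.3 for tables and matplotlib 3.10.9 for plots.

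Named genes are the 36 and members of the list of 87 further genes, from which the text gives the highest 3, any called different and some chosen after their values were seen; the lowest is not reported here. The genes, lists, motifs and tests were chosen with earlier results of these data known. Alternatives were the posterior mean values, protein-coding transcripts alone, FPKM, other length scalings, DESeq2 1.42.0 size factors, library totals, other count minimums and leaving out each library. Protein identity of related enzymes was not computed. Pnp of the further list was not matched by symbol.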

Additional observations from a re-analysis of the deposited data

How the results depend on the processing

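With 1 group, 2 libraries and 1 shared cell sample, no spread between cultures can be given, and the exact test knows counting error only. No paired analysis was possible because the series has 1 group. Counting limits the lowest genes (Phgdh, Ctps2, Mthfd2l, Rrm2b).

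Psph was the 1 gene called under every scaling and count minimum. Without the fold requirement, 30 of the 35 were called, beside 7495 of all 11636 tested genes (64.4%). Of those 30, replicate 2 had the larger scaled value in 21 and replicate 1 in 9. Calls over all genes split evenly, at 3747 and 3748 in the same order. A minimum of 50 counts gave 421 calls among all 10130 genes then tested (4.16%). Library totals moved the median log2 ratio of all genes from 0.01 to 0.13 and of the 35 genes to 0.28. Protein-coding transcripts alone left 34 genes detected and gave medians of 18.5 TPM over the 36 genes (27.9 in the main analysis), 25.6 for purine, 7.72 for pyrimidine and 16.0 for deoxynucleotide genes, and log2 ratios of 9.54 for Rrm2 over Rrm2b, 7.39 for Shmt2 over Shmt1, 1.29 for Impdh2 over Impdh1 and, reversed, 0.47 for Prps1 over Prps2. FPKM gave medians of 31.5 for purine and 55.8 for folate genes. Counts per length of the leading transcript gave log2 ratios of 6.56, 5.35, 1.52 and -3.19 for the same pairs in that order and 3.01 for Ctps over Ctps2. Counts per length of the longest protein-coding transcript, added after seeing the data, gave 9.35, 6.50, 1.45, -0.56 and 3.07. Posterior means gave 1.99 for Ctps over Ctps2. Leaving out a library gave -0.36 to 0.13 for Mthfd1l over Mthfd1, so its sign rests on 1 library. The cause of these shifts was not tested. The serine median was 7.87 TPM over protein-coding transcripts and 21.1 without Phgdh (14.2 in the main analysis, SD 13.7), Ppat over Paics reversed as given above, and 25 genes reached 10 TPM. Leaving out single libraries aside, 38 values stayed within 1 SD of the main value or, for counts, within 1.5 times of it, 23 moved further and 1 reversed.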

Other observations

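The genes around the folate and methionine cycles spanned a wide range. Slc19a1, the reduced folate carrier, had 33.1 and 38.9 TPM in replicates 1 and 2, and Fpgs, which traps folate in the cell by adding glutamates, had 144 and 82.2. Mtr, methionine synthase, had 8.33 and 12.6 TPM. Mat2a, which makes the methyl donor S-adenosylmethionine, had 13.6 and 23.4 TPM. Gldc, the decarboxylase of the glycine cleavage system, had 0 counts in both libraries, while Gcsh, its carrier protein, had 9.11 and 9.38 TPM. Aldh1l1 and Aldh1l2, which oxidise formyl-folate, were at 0 counts as well. In all, 19 of the 86 further genes had 0 counts in both libraries.

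Among nucleoside handling genes, Slc29a1, the plasma membrane equilibrative transporter, had 141 and 205 TPM and Dtymk, thymidylate kinase, 146 and 131. Samhd1, which degrades deoxynucleotides, had 19.6 and 23.8 TPM. Ada, adenosine deaminase, had 0.38 TPM in each library, below the limit of detection used, and Xdh, which makes uric acid, was listed at 0 TPM. These genes were named after their values were seen.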
